A study of Mus musculus with 4 samples.

Results

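The neural progenitor and early neuron genes described here are Sox1, Sox3, Pax6, Nes, Neurog2, Neurod1, Tubb3, Elavl3 and Map2, 9 of the 24421 genes in the count files, chosen by symbol as known genes of neural development. All 9 had a count in at least 1 library and were tested. RNA of R1, an established mouse embryonic stem cell (ESC) line, was sequenced with TruSeq libraries on the Illumina platform in 2 states, with 2 replicates of each. Undiff is R1 cells before differentiation, which the methods of the study describe as maintained with leukaemia inhibitory factor (LIF) and the sample labels as embryoid bodies. Day4 is embryoid bodies grown without LIF and then treated for 4 days with retinoic acid (RA), at 2 µM in the series design and the methods and 2 mM in the sample labels. Per the methods, these bodies formed from suspended cells over 4 days before RA was added. Day4 therefore differed from Undiff, as the methods describe it, in aggregation, in culture without LIF, in time and in RA, and the contributions of these cannot be told apart. Nothing in the labels says that the replicates are separate cultures, although the methods do.

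During formation of the nervous system, dividing neural progenitors are marked by SoxB1 transcription factors, by the homeodomain factor Pax6 and by nestin, an intermediate filament protein encoded by Nes. Proneural basic helix-loop-helix (bHLH) factors such as Neurog2 and, later, Neurod1 then direct progenitors to leave the cell cycle and become neurons, which switch on neuronal tubulin, RNA-binding and microtubule proteins such as those of Tubb3, Elavl3 and Map2. RA, a vitamin A metabolite, is widely used to direct embryoid bodies towards neural fates. Most of these genes are also used outside the nervous system, as Pax6 and Neurod1 are in hormone-producing cells of the pancreas and Nes in endothelial and muscle precursors.

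Between 32099074 and 47730944 fragments were counted on genes in a library, so that a floor of 3 counts stood for 0.0629 to 0.0935 CPM (counts relative to the total of the library), for counting error only. Fragments assigned to no gene were 12.1% and 13.2% in Undiff and 7.50% and 7.74% in Day4, a difference between the states whose part in the results was not tested. The labels of the states were checked with 12 pluripotency markers, of which 11 were lower and 1 higher in Day4, and whose summed level was between 4774 and 4783 CPM in Undiff and between 66.9 and 69.5 CPM in Day4. In bulk samples, fewer cells of a type and less RNA per cell cannot be told apart.

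Most of the 9 genes were lower in Day4 than in Undiff. A differentially expressed gene (DEG) was defined by an edgeR adjusted p-value not above 0.05, a log2 fold change of 1 or more in size and at least 5 normalized counts on average. By this rule 6 of the 9 genes fell (Sox1, Sox3, Pax6, Neurod1, Tubb3 and Elavl3), 1 rose (Nes) and 2 were not called (Neurog2 and Map2). Of all 19891 genes tested, 42.8% were DEGs, 22.2% higher and 20.6% lower in Day4. The median log2 fold change of the 9 genes was -2.02, and that of all genes tested was -0.03. The normalized counts of the states did not overlap for 8 of the 9 genes, the exception being Neurog2, a share near the 85.4% of all genes tested whose states did not overlap.

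**Figure D1:**
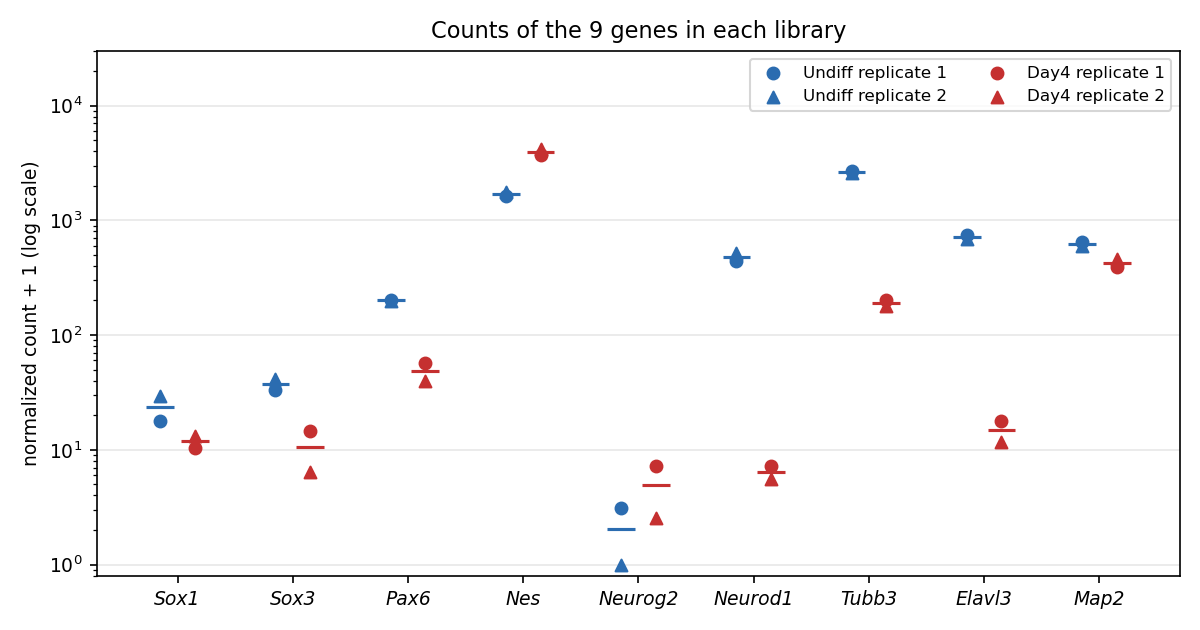
Normalized counts of the 9 genes plus 1, on a log axis, in each of the 4 libraries, with points for libraries and short lines for the mean of the 2 replicates of a state. Neurod1, Elavl3 and Tubb3 stand far lower in Day4, and Nes is the gene with separate groups that stands higher.

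The SoxB1 factors Sox1 and Sox3 keep neural progenitors dividing and are expressed when the neural plate forms. Sox1 (chr8:12395295-12400126, plus strand, GRCm38) and Sox3 (chrX:60891366-60893430, minus strand) are each annotated with a single exon. Sox1 overlaps genes on the same strand, among them Sox1ot, that are not in the count files. Sox1 had 16 and 24 counts in Undiff and 9 and 16 in Day4. The raw ranges touched at 16, and after scaling the Undiff values of 16.7 and 28.7 normalized counts both lay above the Day4 values of 9.40 and 12.3. The log2 fold change was -1.003 ± 0.42 (SE, n = 2 per state, edgeR adjusted p = 0.0438), close to the limits on fold change and p-value. With DESeq2 it was not called (DESeq2 adjusted p = 0.196). It was also lost without Undiff replicate 2 (log2 fold change -0.59, edgeR adjusted p = 0.327), without Day4 replicate 1 (-0.85, edgeR adjusted p = 0.131) and without Day4 replicate 2 (-1.26, edgeR adjusted p = 0.0609). Sox3 had 31 and 34 counts in Undiff against 13 and 7 in Day4, with every Undiff library above every Day4 library. Its mean was 36.5 ± 5.92 normalized counts (SD, n = 2) in Undiff and 9.48 ± 5.80 (SD, n = 2) in Day4, a log2 fold change of -2.02 ± 0.41 (SE, edgeR adjusted p = 0.000526).

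Both genes were minor members of their family in these cells. Sox2, the SoxB1 gene that ESCs and neural progenitors share, had 11825 and 11482 counts in Undiff and 127 and 76 in Day4, a log2 fold change of -7.17 ± 0.15 (SE, edgeR adjusted p = 8.31e-14). Sox1 was 0.135% and 0.208% of the SoxB1 counts in Undiff, and 6.04% (95% Wilson interval 3.21 to 11.1) and 16.2% (10.2 to 24.7) in Day4. Sox3 was 0.261% and 0.295% in Undiff and 8.72% and 7.07% in Day4. The shares of Sox1 and Sox3 were thus larger in Day4 while their own normalized counts were smaller, since Sox2 differed by more than either. Neither share overlapped between the states, and with 2 libraries per state the two-sided exact permutation test gave p = 0.33, the smallest it can give.

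Pax6, a paired-box factor of the forebrain, spinal cord and eye, fell about as far as Sox3. The gene (chr2:105668900-105697364, plus strand) overlaps the antisense gene Pax6os1, which is not in the count files. Pax6 had 193 and 166 counts in the Undiff libraries and 54 and 50 in the Day4 libraries, and the Undiff replicates were closer to each other than the Day4 replicates after scaling. The mean was 199.9 ± 1.77 normalized counts (SD, n = 2) in Undiff and 47.4 ± 12.7 (SD, n = 2) in Day4. The Day4 mean was 4.22-fold lower, and the log2 fold change was -2.11 ± 0.18 (SE, edgeR adjusted p = 1.09e-07). Among the 9 Pax genes, Pax6 took 66.6% and 62.2% of the counts in Undiff and 47.4% and 42.0% in Day4, a share that did not overlap between the states (exact permutation p = 0.33). Pax8, a factor of kidney and thyroid, had 72 and 85 counts in Undiff and 26 and 29 in Day4, and Pax7 had 12 and 11 against 1 and 1. Pax2, which marks kidney, eye and midbrain precursors, went the other way, with 2 and 1 counts in Undiff and 19 and 30 in Day4, a ratio of 13.0 with an exact counting interval of 4.19 to 65.1.

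Nes was the member that rose. The gene (chr3:87971078-87980451, plus strand) had 1555 and 1460 counts in Undiff and 3564 and 5471 in Day4. Both Day4 libraries stood above both Undiff libraries, with means of 1684 ± 89.4 normalized counts (SD, n = 2) in Undiff and 3962 ± 338 (SD, n = 2) in Day4. The mean was 2.35-fold higher in Day4, and the log2 fold change was 1.24 ± 0.06 (SE, edgeR adjusted p = 6.60e-10). Vim, the intermediate filament gene of mesenchymal cells and of many progenitors, rose as well, from 2645 and 2435 counts to 14192 and 19651, a 5.28-fold higher mean normalized count (edgeR adjusted p = 3.26e-14). None of the 5 neuronal genes of the family (Ina, Nefl, Nefm, Nefh and Prph) was called higher, and 3 of them fell. Ina, which encodes alpha-internexin, had 1614 and 1476 counts in Undiff and 41 and 45 in Day4, and the heavy neurofilament gene Nefh had 1667 and 1758 against 67 and 78. Nefl, of the light neurofilament, had 384 and 360 counts in Undiff and 382 and 445 in Day4 and was not called. Nefm, of the medium neurofilament, went up, from 59 and 51 counts to 94 and 139. Its log2 fold change was 0.75 ± 0.18 (SE, edgeR adjusted p = 0.00173), so that Nefm passed the test but was not a DEG. Within the 8 intermediate filament genes, Nes took 18.8% and 18.6% of the counts in Undiff and 19.4% and 21.1% in Day4, so that its share moved by little next to its 2.35-fold higher level.

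**Figure D2:**
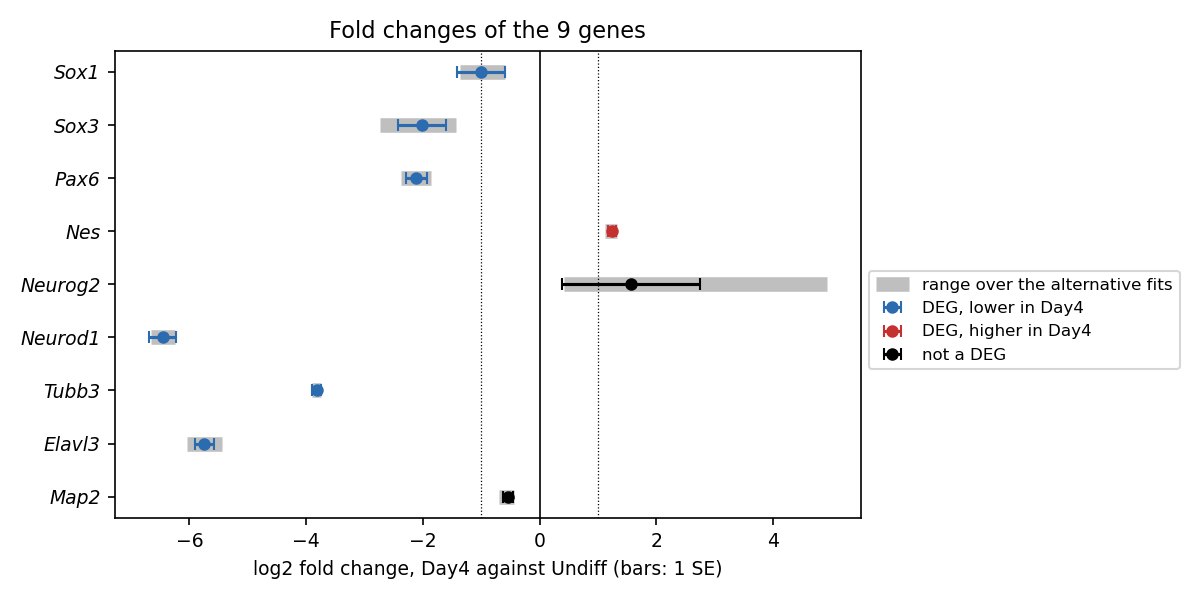
Log2 fold change of each gene, Day4 against Undiff, with bars of 1 SE and dotted lines at the minimum fold change, over grey bands for the range of the alternative fits. Neurod1, Elavl3 and Tubb3 have narrow bands far below 0, Sox1 spans the minimum fold change, and the band of Neurog2 runs from 0.42 to 4.92.

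The proneural factors Neurog2 and Neurod1 had different levels and different patterns. Neurog2 (chr3:127633135-127635631, plus strand), which sets progenitors on the way to neurons, was at or near the floor throughout, with 2 and 0 counts in Undiff and 6 and 2 in Day4. The ranges overlapped, and the ratio of the summed counts after scaling was 3.18 with an exact counting interval of 0.634 to 30.7. Its log2 fold change of 1.57 ± 1.19 (SE, edgeR adjusted p = 0.245) was not called, and a difference was not detectable at this depth. Neurod1 (chr2:79452521-79456751, minus strand), which acts in differentiating neurons and pancreatic endocrine cells, had 419 and 436 counts in Undiff and 6 and 6 in Day4. The mean was 479 ± 60.1 normalized counts (SD, n = 2) in Undiff and 5.44 ± 1.17 (SD, n = 2) in Day4, 88.1-fold lower. Its log2 fold change of -6.46 ± 0.23 (SE, edgeR adjusted p = 1.47e-11) was the lowest of the 9 genes, and 350 of the genes tested had a lower fitted value. Neurod1 overlaps Cerkl on the same strand, a gene with 8 and 12 counts in Undiff and 2 and 2 in Day4, and the counts in the shared part are uncertain.

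Neurod1 made up 92.9% (95% Wilson interval 90.2 to 94.9) and 94.6% (92.1 to 96.3) of the Neurog and Neurod counts in Undiff. In Day4 it made up 18.8% (8.89 to 35.3) and 27.3% (13.2 to 48.2) of only 32 and 22 family counts. Neurog3, which precedes Neurod1 in the endocrine pancreas, went with it, at 27 and 23 counts in Undiff and 0 and 3 in Day4. Neurog1, the close relative of Neurog2, had 2 and 0 counts in Undiff and 13 and 7 in Day4, a ratio of 7.94 with a counting interval of 1.93 to 70.1 (log2 fold change 2.86 ± 0.99, SE, edgeR adjusted p = 0.0175). Of the 7 genes of this family, 2 had no count in any library.

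The neuronal genes Tubb3, Elavl3 and Map2 were all at substantial levels in Undiff. Tubb3 (chr8:123411424-123422015, plus strand) encodes the beta-tubulin by which neurons are commonly stained. It had 2577 and 2151 counts in Undiff and 191 and 230 in Day4, which were means of 2629.6 ± 79.0 and 188 ± 16.2 normalized counts (SD, n = 2 per state). The Day4 mean was 14.0-fold lower, at a log2 fold change of -3.82 ± 0.08 (SE, edgeR adjusted p = 4.63e-14). Elavl3 (chr9:22015005-22052023, minus strand), whose product HuC binds and stabilizes neuronal mRNAs, had 715 and 576 counts in Undiff and 16 and 14 in Day4. Its mean was 717 ± 39.5 normalized counts (SD, n = 2) against 13.7 ± 4.22 (SD, n = 2), a 52.2-fold lower mean, and its log2 fold change was -5.74 ± 0.16 (SE, edgeR adjusted p = 1.40e-12). For both genes the Undiff and Day4 libraries lay far apart next to the spread of the replicates. Each overlaps a gene on its own strand that is not in the count files, Gm20388 for Tubb3 and Gm49318 for Elavl3.

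Map2 (chr1:66175273-66442583, plus strand), a microtubule protein of dendrites, differed by less than the minimum fold change. The gene overlaps the antisense gene Gm10558 and small RNA genes, which are not in the count files. Map2 had 618 and 502 counts in Undiff and 375 and 599 in Day4. The raw ranges overlapped, while after scaling the Undiff values of 644 and 601 normalized counts lay above the Day4 values of 392 and 460. The log2 fold change was -0.54 ± 0.09 (SE, edgeR adjusted p = 0.000104), so that Map2 passed the test but was not a DEG, in contrast to the other neuronal genes among the 9.

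Each neuronal gene was also set against its family within a library, a share that does not depend on scaling between libraries. Tubb3 was 2.53% and 2.52% of the counts of the 8 beta-tubulin genes in Undiff, and 0.199% and 0.175% in Day4. The family total was carried by Tubb5, the common beta-tubulin of dividing cells, at 68861 and 57525 counts in Undiff and 80643 and 110791 in Day4 (log2 fold change 0.27 ± 0.03, SE, not called). Elavl3 was 8.10% and 7.05% of the Elavl counts in Undiff and 0.269% and 0.171% in Day4. Elavl2, another neuronal member, fell from 1811 and 1773 counts to 382 and 505, while the widely expressed Elavl1 had 6202 and 5672 counts in Undiff and 5463 and 7586 in Day4 and was not called. Map2 was 3.75% and 3.57% of the structural microtubule-associated protein (MAP) counts in Undiff and 3.30% and 3.68% in Day4, and these ranges overlapped (exact permutation p = 0.667). In that family Mapt, the gene of tau, fell from 221 and 165 counts to 52 and 54, Map6 fell from 469 and 378 to 17 and 18, and Map1a rose from 930 and 898 to 2189 and 3088.

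**Figure D3:**
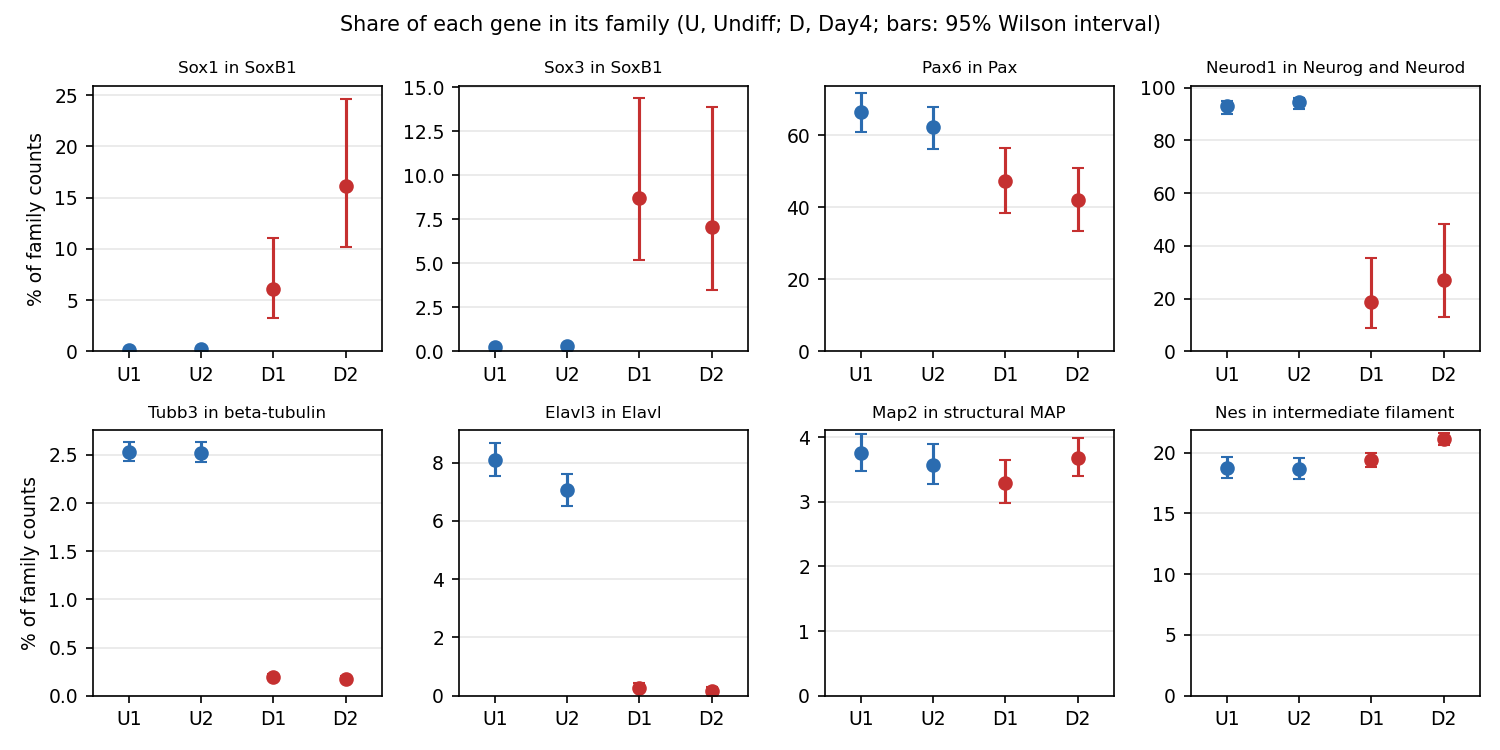
Share of a gene in the summed counts of its family, in percent, in Undiff (U) and Day4 (D) replicates 1 and 2, with 95% Wilson intervals that cover counting error only. The shares of Pax6, Neurod1, Tubb3 and Elavl3 are lower in both Day4 libraries, those of Sox1, Sox3 and Nes are higher, and those of Map2 overlap.

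The order of the 9 genes within a state was read per length, as CPM per kilobase of annotated exons. In Undiff, Tubb3 stood first at 36.7 ± 1.23 (SD, n = 2), followed by Nes at 6.85 ± 0.34, Neurod1 at 4.58 ± 0.56, Elavl3 at 2.72 ± 0.16 and Map2 at 0.99 ± 0.05 on the same scale. Sox3 and Pax6 came next at 0.461 ± 0.073 and 0.446 ± 0.006 and did not differ beyond their spread, ahead of Sox1 at 0.123 ± 0.046 and Neurog2 at 0.012 ± 0.017. In Day4, Nes stood first at 16.9 ± 1.40 (SD, n = 2), then Tubb3 at 2.75 ± 0.24 and Map2 at 0.71 ± 0.08. The other 6 genes lay between 0.019 and 0.180 in the single Day4 libraries, where Sox3 and Pax6 overlapped each other, as did Sox1, Elavl3, Neurod1 and Neurog2. Sox3, at 0.071 in Day4 replicate 2, also overlapped Neurog2, at 0.077 in Day4 replicate 1. The place of Pax6, which has many annotated transcripts, depended on the length used. With the longest transcript, Pax6 was at 1.18 ± 0.015 in Undiff, and at 0.349 and 0.237 in the Day4 libraries, above Sox3 without overlap in either state. By counts, Nes was 25.4% and 27.3% of the sum of the 9 genes in Undiff and 84.2% and 85.6% in Day4, while Tubb3 went from 42.1% and 40.2% to 4.51% and 3.60%.

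The sequence upstream of the start is shown for the genes with the largest falls, Neurod1 and Elavl3, and for Nes, which rose. The letters are from RefSeq promoter windows on GRCm38.p6, which held 8 of the 9 genes in 9 windows, Sox3 being the exception. They are cut to the part before the start that lies outside annotated exons, and capitals mark matches to the motifs searched. The stretches are chr2:79456786-79456886 (minus strand) for Neurod1, chr9:22052024-22052273 (minus strand) for Elavl3 and chr3:87970843-87971077 (plus strand) for Nes.
Neurod1: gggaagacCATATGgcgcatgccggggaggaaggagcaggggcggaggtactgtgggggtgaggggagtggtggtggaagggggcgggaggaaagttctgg
Elavl3: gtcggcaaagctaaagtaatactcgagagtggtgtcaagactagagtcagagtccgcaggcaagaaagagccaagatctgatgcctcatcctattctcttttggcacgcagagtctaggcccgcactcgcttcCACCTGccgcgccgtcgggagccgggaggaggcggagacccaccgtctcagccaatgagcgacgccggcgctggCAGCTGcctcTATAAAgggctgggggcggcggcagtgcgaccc
Nes: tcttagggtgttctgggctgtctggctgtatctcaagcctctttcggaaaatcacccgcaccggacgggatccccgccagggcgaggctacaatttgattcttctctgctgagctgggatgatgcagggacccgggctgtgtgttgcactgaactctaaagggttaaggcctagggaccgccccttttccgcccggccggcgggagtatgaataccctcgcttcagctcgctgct
The motifs, searched on both strands, were the E-box CANNTG that bHLH factors bind, the E-box form CAGATG that is contained in it, the hormone receptor half-site AGGTCA that RA receptors bind in pairs, the SOX core ATTGTT and TATAAA, the TATA box. The general E-box CANNTG was found in 3 of the 9 windows (Neurod1, Elavl3 and the inner Pax6 start), against 72.3% of all 32851 windows. CAGATG and AGGTCA were found in 0 of 9, against 17.2% and 16.3% of all windows. ATTGTT was found in the window of Neurog2 alone and TATAAA in that of Elavl3 alone, against 10.7% and 13.6% of all windows. The median GC content was 65.3% in the windows of the 9 genes and 52.7% over all windows, and the ratio of observed to expected CpG was above the median of all windows in all 9. The windows of the falling Neurod1 and Elavl3 and of the rising Nes all had a GC content above that median, at 66.7%, 65.3% and 58.7%. Neurod1 and Elavl3 also lay above the upper quartile of all windows, 61.7%, and Nes did not.

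Other genes of neural development were read from lists that hold none of the 9 genes. Beside the counts called in a list, 22.2% of all genes tested were higher and 20.6% lower in Day4. Of 24 neural progenitor factors, 12 rose and 7 fell, with a median log2 fold change of 1.28. With filterByExpr, 11 were called higher and 6 lower. Without Day4 replicate 1, the excess of genes called higher over genes called lower was smaller. Meis2, a homeodomain partner of Hox factors, rose from 33 and 37 counts in Undiff to 14063 and 18497 in Day4, and Sox11, a factor of progenitors and young neurons, rose from 1901 and 1733 to 6559 and 9182. Sox2, described above, was among those that fell. Prom1, a membrane protein of progenitors, had a log2 fold change of 0.78 ± 0.09 (SE), and Hes5, a Notch target, had 9 and 10 counts against 6 and 4, and neither was called. Of 18 regional factors, 11 rose and 5 fell, with a median of 2.30. Those that rose included Hoxb4, from 7 and 4 counts to 2121 and 2838. Otx2, a factor of the forebrain and of pluripotent epiblast, fell from 5389 and 3541 counts to 0 and 1, a ratio of 8.90e-05 with a counting interval of 2.25e-06 to 0.000496.

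Of 13 other proneural bHLH genes, 4 had no count, and of the 9 tested 5 rose, unlike Neurod1, and 1 fell, with a median log2 fold change of 2.25. Bhlhe22 rose from 16 and 9 counts to 1505 and 2053. The 5 included genes at low counts, such as Nhlh1 with 2 and 3 counts in Undiff and 20 and 28 in Day4, and 6 of the 9 were at or under 3 counts in both Undiff libraries. Without Day4 replicate 1, with DESeq2 or with filterByExpr, 3 in place of 5 were called higher. Of 13 inhibitors of neurogenesis, 7 rose and 2 fell, with a median of 1.28. Id2 and Id3, which block bHLH factors, rose from 1185 and 1080 and from 564 and 535 counts to 10262 and 14430 and to 14826 and 17801. Rest, a repressor of neuronal genes in other cells, fell from 7561 and 6615 to 2569 and 3277, while Ctdsp1, a phosphatase that acts with it, rose from 692 and 622 to 6135 and 8303. Ptbp1, which represses neuronal splicing, had a log2 fold change of 0.06 ± 0.04 (SE) and Id1 one of 0.96 ± 0.07 (SE), and neither was called.

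Among 24 early neuron structural genes, 3 rose, 12 fell as Tubb3 and Elavl3 did, and 9 were not called, and the median log2 fold change was -0.99. Stmn2, a microtubule regulator of growing axons, fell from 6969 and 6328 counts to 883 and 1080, and Map1b, a microtubule protein of axons, fell by 1.01 on the log2 scale. The genes that rose were Dcx, Ncam1 and Dpysl3, of which Dcx is named after its values were seen. Dcx, the gene of doublecortin in migrating young neurons, had 2 and 1 counts in Undiff and 961 and 1352 in Day4, a ratio of 613 with a counting interval of 209 to 2973. Ncam1, a cell adhesion molecule of neurons and other tissues, rose from 219 and 165 to 4523 and 5623, and Dpysl3, of growth cones, from 967 and 893 to 2795 and 4318. Tubb2b and Tubb2a, neuronal beta-tubulins, had log2 fold changes of -0.27 ± 0.04 and -0.64 ± 0.07 (SE) and were not called. The summed level of the list was between 854 and 879 CPM in Undiff and between 556 and 562 CPM in Day4.

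The synaptic and mature neuron genes were divided, with 6 of 22 higher and 9 lower in Day4. Their median log2 fold change was -1.08. It was -0.70 when the gene at 0 in both libraries of a state was taken at its fold against a floor of 3 counts per library. Vamp2 and Rab3a, of synaptic vesicles, rose by 1.43 ± 0.06 and 1.97 ± 0.10 on the log2 scale (SE), whereas Camk2b, a neuronal kinase subunit, fell from 912 and 789 counts to 66 and 100, and Kif5c, a neuronal motor, fell from 1669 and 1400 to 594 and 864. Among 19 neuronal subtype factors, 9 rose and 4 fell, with a median of 1.43. Isl1, of motor neurons and also of heart and pancreas, rose from 9 and 16 counts to 233 and 322, and Lhx1 from 11 and 4 to 326 and 480. Pou4f1, of sensory neurons, fell from 157 and 169 to 18 and 16.

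**Figure D4:**
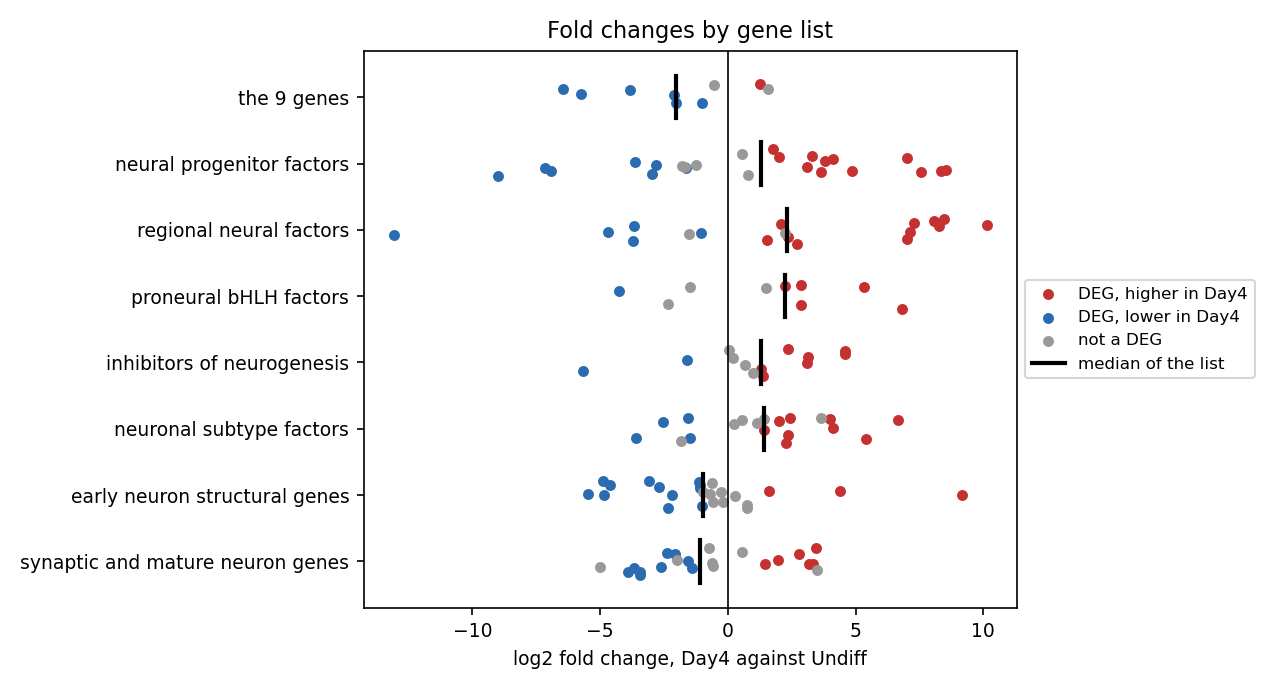
Log2 fold changes, Day4 against Undiff, of the 9 genes and of 7 lists of other neural genes, with 1 point per gene tested and a black line at the median of the list. The 9 genes and the structural genes have medians below 0, as do the synaptic genes, while the medians of the other 5 lists are above 0.

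Markers of other cell types moved at the same time, and are read beside the 22.2% higher and 20.6% lower among all genes tested. Of 12 mesoderm markers, 6 rose and 3 fell, and their summed level was between 48.6 and 52.2 CPM in Undiff and between 268 and 270.1 CPM in Day4, with a median log2 fold change of 1.33. Of 12 primitive and visceral endoderm markers, 9 rose and 2 fell, with sums between 63.3 and 70.5 CPM and between 667 and 675 CPM and a median of 3.25. Of 8 endothelial markers, 6 rose and 2 fell, with sums between 167 and 169 CPM and between 336 and 339.6 CPM and a median of 4.08. Of 8 muscle markers, 3 rose and 1 fell, with sums between 45.5 and 51.3 CPM and between 106 and 133 CPM, while the median was -0.43. The median was -0.19 when the fitted value of Myf5, which was at 0 in both Day4 libraries, was not used. Of 8 surface ectoderm markers, 1 rose and 3 fell, with sums between 1723 and 1737 CPM and between 248 and 265 CPM, and the median was -0.17. Among these markers, Afp was at 0 in both Undiff libraries, and all others but Myf5 had a count in each state. Their part in the level of Nes or of any of the other 8 genes was not tested.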

How the data were processed

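RNA of 2 Undiff and 2 Day4 libraries was sequenced as Illumina TruSeq libraries. Per the labels and the methods of the study, cutadapt was used by the authors for trimming and STAR 2.4.2a for alignment to mm10, and they counted uniquely aligned fragments per gene with HTSeq. The deposited values are these counts, as whole numbers that were not normalized, and the methods name a strand-specific option for the long-read Direct RNA libraries without naming the one used for TruSeq. Summary lines of fragments on no gene or on several genes were left out of the tests.

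TMM factors were used to normalize the counts, and Day4 was tested against Undiff in edgeR 4.0.16 (glmQLFit with legacy off, glmQLFTest) in R 4.3.3 over the 19891 genes with a count, with Benjamini-Hochberg adjustment over all of them. DEGs were defined as in the study, by an adjusted p-value not above 0.05, a log2 fold change of 1 or more in size and at least 5 normalized counts on average. Normalized counts were obtained by scaling each library to the geometric mean of effective library sizes, and the standard error is the size of the log2 fold change divided by the square root of F. Counting intervals of ratios are exact binomial and those of shares are Wilson intervals at 95% (scipy 1.17.1), and PCR reads without molecular identifiers are not independent molecules. Positions and exon lengths are from GENCODE vM21 on GRCm38, matched by symbol.

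The 9 genes and all lists were chosen with earlier results of these data known. The 9 genes are given in full. From each other list, up to 4 DEGs and up to 2 other genes with the highest mean CPM may be named, and every gene of a family may be named. Some genes that this rule names are not reported here. The alternatives were DESeq2 1.42.0 with the settings of the study, its size factors in edgeR, library totals, filterByExpr, a replicate block, no minimum count, each library left out, the length of the longest transcript and, added after seeing the data, the older quasi-likelihood fit.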

Additional observations from a re-analysis of the deposited data

How the results depend on the processing

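Nes, Sox3, Pax6, Neurod1, Tubb3 and Elavl3 kept their direction and their call in all 10 alternative fits, and Map2 stayed below the minimum fold change in all 10. Neurog2 was not called in the 9 fits that tested it, as filterByExpr left it out. The fall of Sox1 was not called with DESeq2 (log2 fold change -1.01, DESeq2 adjusted p = 0.196) or with library totals (-0.94, edgeR adjusted p = 0.0596). With a library left out it lay between -1.37 and -0.59, and it was called only without Undiff replicate 1. The cause was not tested. The proneural bHLH factors called higher were 3 with DESeq2 and 3 with filterByExpr, which tests fewer genes, and between 3 and 4 with a library left out. The difference in the family share of Map2 was -0.17 percentage points and, with a library left out, lay between -0.366 and 0.019, reversed without Day4 replicate 1. With the length of the longest transcript in place of the exon union, 5 of the 9 genes kept their rank in Day4.

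Both states use the replicate numbers 1 and 2, but same-numbered libraries did not deviate together (correlation -0.0100 over 16472 genes). With 2 libraries per state this is a single coefficient, which cannot decide whether same-numbered libraries came from a shared culture run. With the replicate block, 4414 genes were higher and 4101 lower in Day4, against 4420 and 4101 without it, and the log2 fold change of Sox1 was -1.07. The block changed the call of none of the 9 genes. The median log2 fold change of all genes moved by 0.07 with library totals and by -0.08 without Day4 replicate 2. Neurog2 had 2 counts in Undiff and 8 in Day4 over both libraries of a state, a depth at which a difference was not detectable.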

Other observations

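Markers of tissues that share genes with the nervous system were read as well. Of 12 glial markers, 3 rose and 3 fell, with a median log2 fold change of 0.03. These shares of 25% and 25% are near the 22.2% higher and 20.6% lower among all genes tested. Pdgfra, which marks oligodendrocyte precursors and also mesenchyme, rose from 174 and 166 counts in Undiff to 6980 and 9402 in Day4, and Slc1a2, a glutamate transporter, from 9 and 6 to 493 and 672. Aldh1l1, an astrocyte enzyme, fell from 311 and 256 to 32 and 62. Of 10 neural crest markers, 5 rose and 2 fell, with a median of 1.26. Twist1 and Snai2, which crest and mesenchyme share, rose from 32 and 30 and from 25 and 27 counts to 2628 and 3286 and to 1004 and 1324, whereas the crest factor Sox10 had 30 and 20 counts in Undiff and 11 and 25 in Day4 and was not called.

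Pancreatic endocrine markers, of the other tissue in which Neurod1 and Pax6 act, were mostly at low counts in Undiff. Of 12 genes, 2 had no count, and of the 10 tested 4 rose, 1 fell and 5 were not called. These shares were 40% higher and 10% lower, against 22.2% and 20.6% among all genes tested. Nkx6-1, named after its values were seen, is also in the list of neural progenitor factors. It rose from 0 and 0 counts to 18 and 18 and is counted in both lists. In both Undiff libraries, 7 of the 10 were at or under 3 counts. Sst, the gene of somatostatin, which neurons and endocrine cells both make, had 0 and 0 counts in Undiff and 845 and 895 in Day4, at least 234-fold higher against a floor of 3 counts per library. Gcg, the gene of glucagon, had 0 and 0 counts against 18 and 32, at least 6.46-fold higher. Chga, a protein of secretory granules in neurons and endocrine cells, fell from 552 and 440 counts to 41 and 61 (log2 fold change -3.61 ± 0.13, SE, edgeR adjusted p = 1.49e-11).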
